A study of Rattus norvegicus with 862 samples.

Results

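Rapamycin was given to rats by oral gavage at 60 mg/kg in CMC, and the hearts were profiled on Affymetrix RG230_2.0 arrays after 3 d or 5 d of daily dosing. These were the 6 arrays labelled Rapamycin among the 862 heart arrays of the series, 3 at each duration, each from a different animal. They were set against the 18 arrays of rats that received the CMC vehicle alone, 9 at each duration, chosen by the same vehicle, route, duration and RNA extraction campaign, with 1 array per animal. All of these animals were male Sprague-Dawley rats bought at 6 to 8 weeks of age, with no genetic change given in the labels. The 6 rapamycin animals belonged to 1 in-life study, of which no control was extracted in the same campaign. The 18 controls came from 11 other studies. Rapamycin was also set against 65 arrays of 13 other compounds in CMC of the same campaign, 6 of them from rats given tacrolimus at 134 mg/kg, and the other compounds and doses are given with that comparison.

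Rapamycin binds the immunophilin FKBP12, and the pair inhibits mTOR complex 1, the kinase complex that joins growth factor, energy and amino acid signals to protein synthesis and holds back autophagy. The active complex also damps insulin signalling through feedback onto the insulin receptor substrates, and promotes the synthesis of ribosomes and lipids. In the heart the kinase is known for its part in growth of muscle cells under load. Tacrolimus, also in this series, binds the same immunophilin but inhibits the phosphatase calcineurin.

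The values were the deposited log2 expression values, 1 per probe set, and each gene was taken from its probe set of highest mean. A gene was called when limma's moderated test with duration as a covariate gave a p, adjusted by Benjamini and Hochberg's method over the 14217 genes measured, of at most 0.01 and the fold change was 1.5 or more. By this rule 59 genes rose and 14 fell with rapamycin, which was 0.513% of all genes (0.415% higher and 0.0985% lower). The balance depended on the fold minimum: at an adjusted p of 0.05 or less without one, 193 genes were higher and 360 lower. The leading higher genes were immediate early transcription factors, and the lower ones included the endoplasmic reticulum chaperones Hspa5 and Sdf2l1.

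The samples were checked before these results were read. The heart muscle markers Myh6 and Tnni3 were at 14.10 to 14.36 and 14.13 to 14.24 in the rapamycin arrays, against 14.25 to 14.39 and 14.06 to 14.24 in the controls. Alb, the hepatocyte gene for serum albumin, was over 12 in the rapamycin 3 d array of replicate 3 (13.46), and in the 5 d controls of replicates 2 and 4 (12.07 and 13.61). The 3 d control of replicate 2 stood at 11.17, and no other array of the comparison was above 7.58. Over the 19 liver markers measured, the mean log2 value was 5.54 to 8.61 in the rapamycin arrays and 5.36 to 9.14 in the controls. Over the 5 atrial markers it was 11.65 in the rapamycin 3 d array of replicate 1. The other rapamycin arrays were at 6.58 to 8.14 and the controls at 6.76 to 11.47. Without the 3 arrays with Alb over 12, the test called 57 higher and 9 lower genes, of which 54 were among the 73.

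The controls fell apart by a label that is not a treatment. Study codes begin with the letter S or R, whose meaning the labels do not give, and the rapamycin study is an S study. Of the 18 controls, 7 came from S studies and 11 from R studies. Fos, the transcription factor subunit of AP-1 that is induced within minutes of many stimuli, was at 5.69 to 11.85 in the S controls and at 3.98 to 4.99 in the R controls. The mean of the 5 atrial markers was 6.76 to 8.25 in the S controls and 7.02 to 11.47 in the R controls. In addition, 3 CMC controls of the rapamycin animals' own study were extracted in another campaign, and they are given below as same-study controls. For the immediate early list, Fos, Zfp36, Irs2, Hspa5 and Sdf2l1, values against the S controls alone are therefore given as well, a comparison of 6 and 7 arrays chosen after the data were seen.

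The immediate early genes, which are transcribed at once when a cell is stimulated and need no new protein, were the group that stood out. Of 16 measured members of 17 listed, 14 rose and none fell, and the list's median log2 change was 2.01, against 0.00 over all genes. Fos was at 11.66, 11.21 and 10.68 in the rapamycin hearts at 3 d and at 12.52, 12.02 and 11.34 at 5 d. In the 18 controls Fos had a lowest value of 3.98, a median of 4.29 and a highest of 11.85. All rapamycin arrays were high, and they overlapped with 3 controls, the same ones that had the highest Alb values. The fitted log2 change of Fos was 5.38 ± 1.12 (SE), a 41.6-fold difference with an adjusted p of 0.00606.

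Egr1, a zinc finger factor of the same class, was at 11.38 to 12.77 in the rapamycin arrays with a median of 11.83. In the controls it ran between 6.56 and 11.71 with a median of 7.58. Its log2 change was 3.60 ± 0.66 (SE, adjusted p = 0.0022). The orphan nuclear receptor genes Nr4a1 and Nr4a3 changed by 3.39 and 4.03 on the log2 scale, the AP-1 subunit Fosb by 4.23 and the stress factor Atf3 by 4.07. Zfp36, whose protein speeds the decay of cytokine mRNAs, was at 10.26 to 11.40 with rapamycin and at 7.59 to 10.25 in the controls, with a log2 change of 2.06 ± 0.30 (SE, adjusted p = 0.000238). It was 1 of 2 genes called higher whose rapamycin and control arrays did not overlap. The other was Abra, an actin-binding protein of striated muscle, at 10.47 to 11.77 with rapamycin and 8.11 to 10.45 in the controls. Abra was at 10.31 to 11.30 with tacrolimus, and it reached 12.29 over the other compounds of S studies.

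**Figure D1:**
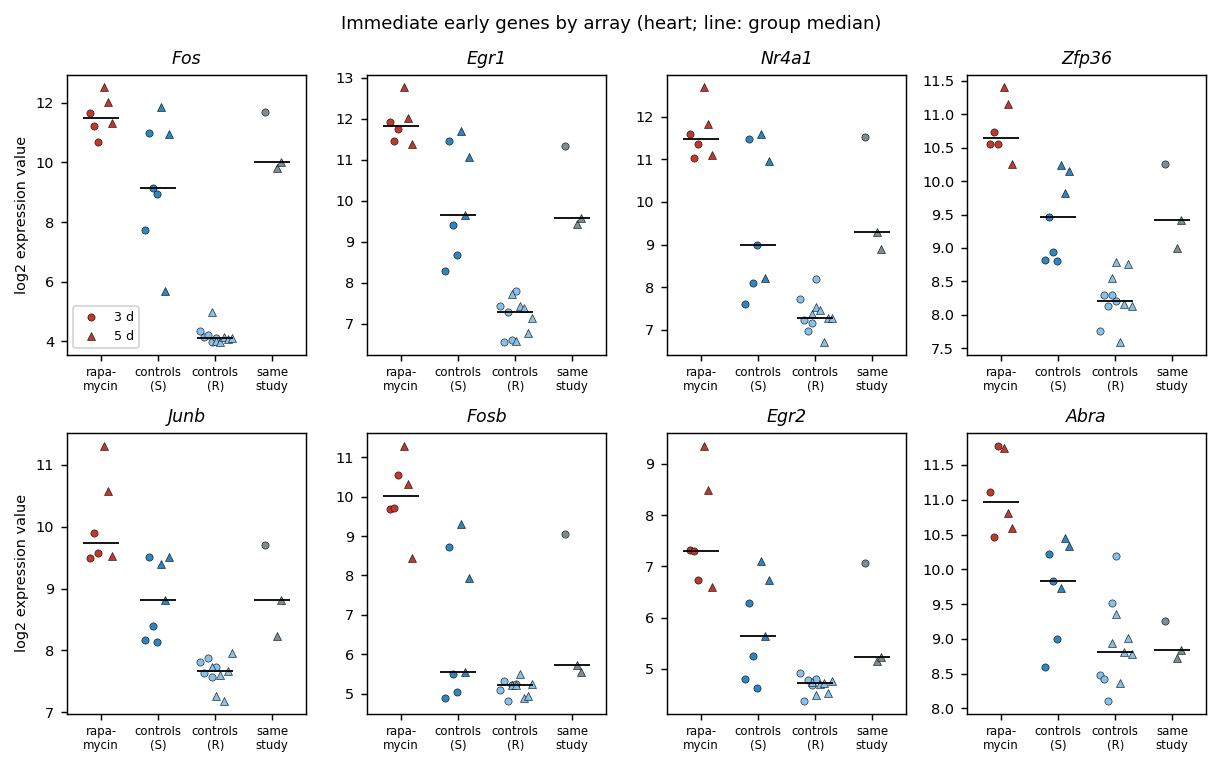
Log2 expression values (vertical axis, a separate scale for each gene) of 8 early-response genes in each array, with circles for 3 d, triangles for 5 d and a line at the median of the group. From left to right the groups are rapamycin (6 arrays), CMC controls of S studies (7), CMC controls of R studies (11) and same-study controls of another campaign (3). Fos is at 10.68 to 12.52 with rapamycin, 5.69 to 11.85 in the S controls, 3.98 to 4.99 in the R controls and 9.82 to 11.70 in the same-study controls.

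The size of the immediate early change depended on which controls were used. The mean over the 16 genes was 9.53 to 10.96 in the rapamycin arrays, 7.36 to 9.81 in the S controls, 6.79 to 7.35 in the R controls and 7.93 to 9.49 in the same-study controls. Rapamycin and R controls therefore did not overlap in this mean, and rapamycin and S controls did. Against the S controls the list's median log2 change was 1.23 and limma called no gene of any kind, with 1476 (10.4%) at an unadjusted p under 0.05. Fos then differed by 2.20 (unadjusted p = 0.0156, adjusted p = 0.327), and Zfp36 by 1.26 (adjusted p = 0.0323). The 59 genes called higher, which were chosen with the same rapamycin arrays, had a median change of 0.90 against the S controls and 1.22 against all controls. Study and treatment cannot be told apart in the matched comparison, which holds no control of the rapamycin study.

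The same-study controls could be used only through a model that estimated the campaign difference from the other CMC controls, 18 in the one campaign and 8 in the other. Their Fos values were 11.70 at 3 d and 9.82 and 10.02 at 5 d, so that the lowest rapamycin value, 10.68, lay within their range. Their Nr4a3 values, 4.56 to 4.91, lay below all 6 rapamycin values, which were 8.60 to 11.23. In that model 2 genes were called, both lower, which was 0.0141% of all genes. The immediate early list had a median log2 change of 1.92 in the same model, against 0.00 over all genes, with none of its genes called.

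The calls among the early genes also changed when extraction or hybridisation day entered the model. With extraction day as a block, limma called 8 genes, all lower, and with hybridisation day as a block 15, all lower. Of the 8, only 3 were among the 73 genes called without a block: Adamts9, Hspa5 and Sdf2l1. Of the 15, only 4 were: Hacd1, Hspa5, Mrpl49 and Sdf2l1. The log2 change of Fos was then 3.50 with extraction day and 4.08 with hybridisation day, and that of Irs2 was 1.42 and 1.46. Only extraction days 2 and 3 held both groups, so that the change with extraction day as a block came from the arrays of these days. Day 2 held 2 rapamycin and 2 control arrays, but both controls were of 3 d. With duration in the model, the difference within day 2 therefore rested on 1 rapamycin array, that of 3 d. It was 3.33 for Fos and 2.11 for Irs2. Within day 3, with 3 rapamycin and 5 control arrays, Fos differed by 3.51 and Irs2 by 1.02. The sign of these genes was the same within both days. Within day 3 limma called no gene. Hspa5 and Sdf2l1 were called under either block, with -0.70 and -0.76 under extraction day, and were -0.34 and -0.58 within day 2 and -0.87 and -0.87 within day 3.

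**Figure D2:**
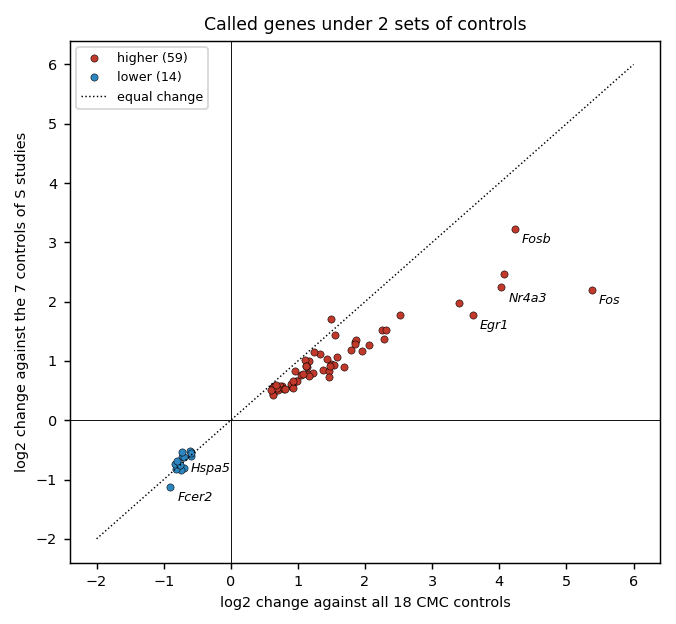
Log2 change of the 73 called genes against all 18 matched CMC controls (horizontal axis) and against the 7 controls of S studies (vertical axis), 1 point per gene, red for the 59 higher and blue for the 14 lower, with a dotted line of equal change. Both axes use the same rapamycin arrays. Fos lies farthest below the line, with 5.38 on the horizontal and 2.20 on the vertical axis, and the lower genes lie near it.

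Beside the immediate early list, other stress genes rose. The inducible heat shock protein Hspa1a was at 8.75, 8.84 and 9.58 in rapamycin hearts at 3 d and at 10.82, 9.91 and 9.17 at 5 d. Its controls reached from 7.32 to 8.88, so that the 2 lowest rapamycin arrays lay within the control range. Hspa1a changed by 1.33 ± 0.22 (SE, adjusted p = 0.00096) and its co-chaperone Dnajb1 by 0.96 ± 0.18 (adjusted p = 0.00238). They were the 2 members called of 11 heat shock genes measured, whose median was 0.05. Srxn1, which restores oxidised peroxiredoxins, changed by 1.24 and was the 1 gene called of 15 NRF2 targets. The chemokine gene Cxcl1 and the prostaglandin synthase gene Ptgs2 changed by 1.86 and 1.56.

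Irs2, an adaptor that carries the signal of the insulin receptor to PI3 kinase, rose. Rapamycin hearts had 9.74, 8.95 and 9.46 at 3 d and 10.08, 9.60 and 8.99 at 5 d. Controls ran between 6.79 and 9.30 with a median of 7.45. The difference was 1.84 ± 0.29 on the log2 scale, 3.59-fold, with an adjusted p of 0.000598. Only 2 controls, at 9.30 and 9.07, reached the rapamycin range, and both were among those with high Fos. The same-study controls, which were extracted in another campaign, had Irs2 at 7.33 at 3 d and at 7.43 and 7.09 at 5 d. All were below the lowest rapamycin array. Their Fos was high, and a link between Fos and Irs2 was not tested. Against the S controls the difference was 1.28 (adjusted p = 0.142), and in the model with the same-study controls it was 3.05 (adjusted p = 0.0234).

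FOXO factors are active when insulin signalling is low. Of the 23 measured genes of a list of FOXO factors, their targets and muscle atrophy genes, 3 rose and 1 fell. Over all genes 0.415% rose and 0.0985% fell. The median of the list was 0.06. Beside Irs2 the higher members were Txnip, an inhibitor of glucose uptake and thioredoxin, and Cited2, a transcriptional co-regulator. Txnip was at 12.75 to 13.04 with rapamycin and at 11.02 to 12.91 in the controls, with a difference of 1.11 ± 0.21 (SE, adjusted p = 0.00232). Pdk4, the kinase that shuts down pyruvate dehydrogenase, had a log2 difference of 0.98 and an adjusted p of 0.0323, which missed the threshold. Klf15, a factor of amino acid and lipid breakdown, was at 8.19 to 9.45 with rapamycin and 9.02 to 10.07 in the controls. It fell by 0.72 (adjusted p = 0.0079), though its difference was 0.12 within extraction day 2, which rested on 1 rapamycin array. Members of the list that did not pass included the muscle ubiquitin ligases Trim63 (0.06) and Fbxo32 (0.13).

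Hspa5 and Sdf2l1 fell, both of which belong to the chaperones of the endoplasmic reticulum that fold secreted proteins and are induced by the unfolded protein response. Hspa5, the main Hsp70 chaperone of that compartment, was at 10.98, 10.55 and 10.59 in rapamycin hearts at 3 d and at 10.89, 10.95 and 10.74 at 5 d. Its 18 controls lay between 11.31 and 11.78. The groups did not overlap, and the difference was -0.70 ± 0.08 (SE, adjusted p = 1.73e-05), or 1.63-fold. Sdf2l1, a partner of the same chaperone, was at 6.89 to 7.32 with rapamycin and at 7.60 to 8.39 in the controls, a difference of -0.80 ± 0.10 (SE, adjusted p = 5.64e-05).

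These 2 genes were those called of 18 on the unfolded protein response list, and the list's median was -0.27. At an adjusted p of 0.05 or less with no minimum of fold change, 8 of the 18 fell and none rose, where 2.53% of all genes fell and 1.36% rose. The other 6 were Manf (-0.56), a secreted survival factor, the disulfide isomerase Pdia6 (-0.56), Hyou1 (-0.55), Canx (-0.38), Calr (-0.29) and Hsp90b1 (-0.27). Herpud1 (-0.08), a component of the degradation machinery, and Sel1l (0.01) did not pass. Hspa5 was at 11.06 to 11.51 and Sdf2l1 at 7.63 to 8.20 in the same-study controls of the other campaign, all above the rapamycin arrays. In the model that estimated the campaign difference, both genes were lower with rapamycin and neither was called. Against the S controls the differences were -0.63 for Hspa5 and -0.69 for Sdf2l1, each with an adjusted p of 0.023, which missed the threshold of 0.01.

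The unfolded protein response acts on such genes through the ERSE, a promoter element that ATF6 and the factor NF-Y bind. It was searched in the 250 bases before each start site of the RefSeq promoter table (GRCr8), as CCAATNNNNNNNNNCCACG on both strands. It was present in 22 of 33469 promoter windows (0.0657%), and in 7 of the 15 genes of the list that the table holds. A match is a description of the letters and not a measured site. The elements are shown, with both conserved ends in capitals, for the 4 genes of the list that fell at an adjusted p of 0.05 or less and had a match, with 1 of the 2 elements of Hsp90b1.
Hspa5: gttcaCCAATcggaggcctCCACGacgggg
Canx: cttgtCCAATcatcacgctCCACGaagaat
Calr: cctgggCCAATcagggtcgaCCACGcgttg
Hsp90b1: aacccaCCAATcgtgcctcaCCACGcactc
The Hspa5 stretch lies at chr3:38452968-38452997 on the plus strand and its element ends 25 bases before the start. The Canx stretch lies at chr10:35158063-35158092 on the minus strand, the Calr stretch at chr19:40213130-40213159 on the minus strand and the Hsp90b1 stretch at chr7:23012341-23012370 on the plus strand. In the last 2 the element runs against the gene. Sdf2l1, which fell most, had no match in its window, while Dnajc3 (-0.32), Creld2 (-0.10) and Xbp1 (-0.17) had a match and did not pass.

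Among the higher genes the CArG box, the element bound by serum response factor, was searched in the same windows. It was found in 501 of 33469 windows (1.50%) and in 3 of the 11 immediate early genes that the table holds, Egr1, Egr2 and Zfp36. The boxes are shown in capitals for the 2 of them with 1 box, next to log2 changes of 2.52 for Egr2 and 2.06 for Zfp36.
Egr2: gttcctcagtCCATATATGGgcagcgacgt
Zfp36: ccgggccgccCCATAAAAGGcgaaagctcc
They lie at chr20:21054505-21054534 and chr1:92799121-92799150 of GRCr8, both on the minus strand and in the direction of the gene.

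**Figure D3:**
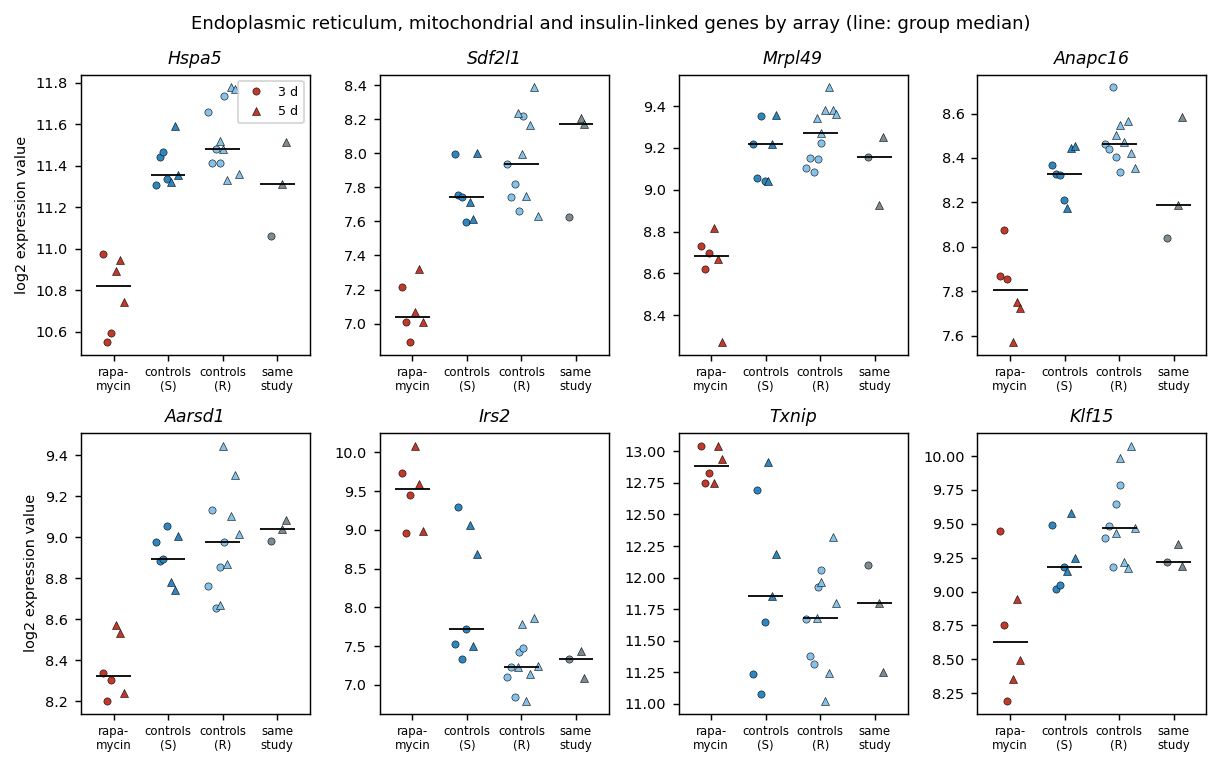
Log2 expression values (vertical axis, a separate scale for each gene) of 8 genes in each array, drawn as circles for 3 d and triangles for 5 d with a line at the group's median, for rapamycin, S controls, R controls and same-study controls from left to right. Hspa5 is at 10.55 to 10.98 with rapamycin and at 11.31 to 11.78 in the 18 matched controls. Irs2 is at 8.95 to 10.08 with rapamycin and at 7.09 to 7.43 in the same-study controls.

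A lower level in every rapamycin array than in every control was seen for 30 genes (0.211%), and a higher one for 3 (0.0211%). The 30 were looked at after their values were seen, and only 5 of them met the fold minimum: Hspa5, Sdf2l1, Mrpl49, Anapc16 and Aarsd1. Mrpl49, a protein of the mitochondrial ribosome, was at 8.73, 8.62 and 8.70 with rapamycin at 3 d and at 8.82, 8.67 and 8.27 at 5 d, against 9.04 to 9.49 in the controls. It differed by -0.60 ± 0.07 (SE, adjusted p = 3.23e-05). Anapc16, a subunit of the anaphase-promoting complex, differed by -0.61 (adjusted p = 1.73e-05), and Aarsd1, which edits mischarged alanyl-tRNA, by -0.59 (adjusted p = 0.000566). Aarsd1 was as low with tacrolimus, at 8.01 to 8.56, as with rapamycin, at 8.20 to 8.57. Anapc16 was at 8.24 to 8.77 with tacrolimus, above its 7.57 to 8.08 with rapamycin.

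The other 25 were below the fold minimum, and the following were picked from them after their values were seen. Cox14, an assembly factor of cytochrome oxidase, was at 10.23 to 10.69 with rapamycin and 10.84 to 11.14 in the controls, a difference of -0.51 (adjusted p = 4.05e-05). Idh3a, a subunit of the isocitrate dehydrogenase of the citric acid cycle, was at 10.39 to 10.74 with rapamycin and 10.80 to 11.03 in the controls, a difference of -0.37 (adjusted p = 0.000122). These 2 were the genes called in the model with the same-study controls, with -0.76 and -0.59 and an adjusted p of 0.0053 each. Pdhx (-0.47), Aifm1 (-0.45), Cox6a1 (-0.40), Mrpl37 (-0.35) and Cox8a (-0.28) were apart in the same direction. Over the 45 measured genes of the oxidative phosphorylation list none was called and the median was -0.08. At an adjusted p of 0.05 or less with no fold minimum, 3 of the 45 were lower and none higher, where 2.53% of all genes were lower.

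The target pathway itself showed little by the call rule. None of the 11 genes of the mTOR complexes was called, with a range of -0.16 to 0.23 and a median of 0.01. Mtor, the kinase, was at 7.93 to 8.53 with rapamycin and at 7.80 to 8.45 in the controls (log2 difference -0.03). Rptor, the scaffold of complex 1, differed by -0.08 and Rictor, that of complex 2, by 0.06. None of the 6 immunophilins was called. Fkbp1a, which encodes FKBP12, was at 11.07 to 11.61 with rapamycin and 11.40 to 11.81 in the controls, a difference of -0.22 (adjusted p = 0.0558), and Fkbp2, its relative of the endoplasmic reticulum, differed by -0.39 (adjusted p = 0.00139) below the fold minimum.

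None of the 32 upstream genes was called, where the median was -0.07. Of 17 downstream genes Irs2 alone was called. The translation repressor Eif4ebp1 differed by -0.04, the kinase gene Rps6kb1 by 0.06, the autophagy kinase Ulk1 by 0.13 and the lysosomal master factor Tfeb by 0.20 (adjusted p = 0.133). Eef2k, the kinase that halts elongation, differed by -0.47 (adjusted p = 0.0242). Of the processes that complex 1 drives or, for autophagy, holds back, none of 30 ribosomal proteins (median 0.00), 20 cholesterol synthesis genes (-0.03), 19 tRNA synthetases (-0.11) and 35 genes of autophagy and the lysosome (-0.05) was called. At an adjusted p of 0.05 or less with no fold minimum, 3 of the 19 tRNA synthetases were lower and none higher, where 2.53% of all genes were lower. No gene of the other lists in that sentence passed this limit. Of 30 proteasome genes none was called, and 6 were lower and none higher at this limit. The 2 called among 33 ATF4 targets were Atf3 and Ppp1r15a, both of which also answer to other stress signals, while the amino acid enzymes and transporters on that list were not called. Myc was the 1 gene called of 29 on the ribosome biogenesis list, with 1.59.

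**Figure D4:**
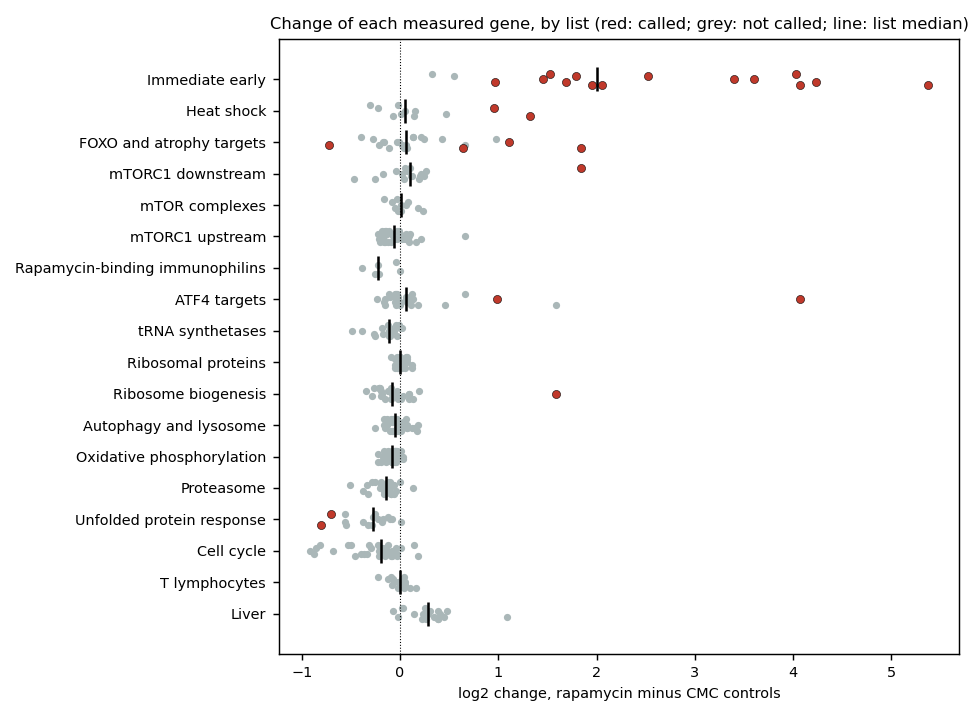
Log2 change, rapamycin minus CMC controls (horizontal axis), of every measured gene of 18 lists (vertical axis), with red for called genes, grey for the others and a line at the median of the list. The immediate early list lies to the right with a median of 2.01, the unfolded protein response list to the left with -0.27, and the mTOR complexes at 0.01.

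None of 35 cell cycle genes was called, and their median was -0.19. At an adjusted p of 0.05 or less with no fold minimum 1 of them was lower, Ccnb2, where 2.53% of all genes were. Mki67, the proliferation antigen, was at 4.26 to 4.58 with rapamycin and at 4.23 to 7.14 in the controls (difference -0.88, adjusted p = 0.0746). Ccnb2, a mitotic cyclin, was at 4.99 to 5.46 with rapamycin and at 5.29 to 7.45 in the controls (-0.92, adjusted p = 0.0177). In whole heart tissue fewer cells of a type and less RNA per cell cannot be told apart. Of the lymphocyte markers none of 16 for T cells and 1 of 7 for B cells was called: Fcer2, the low-affinity IgE receptor, at 6.36 to 7.17 with rapamycin and 6.82 to 8.28 in the controls, fell by 0.90 (adjusted p = 0.00416). No gene was called among 11 macrophage, 7 neutrophil, 10 red blood cell, 12 endothelial, 26 collagen and matrix, or 22 heart muscle genes. The further lower genes were Lpar6, Cyp11a1, Pter, Arl16, Dancr, Adamts9 and Hacd1, with differences between -0.83 and -0.59.

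By duration the counts were small. At 3 d, with 3 rapamycin animals, 1 gene was called, Hspa5 (-0.77), which was 0.00703% of all genes, while 1626 (11.4%) had an unadjusted p under 0.05. At 5 d, 9 genes were called (0.0633%), 5 higher (0.0352%) and 4 lower (0.0281%), with 1471 (10.3%) at an unadjusted p under 0.05. The higher ones were Hspa1a (1.73), Dnajb1 (1.47), the small Maf factor Maff (1.36), Zfp36l1 (0.67) and Ubald1 (0.60). The lower ones were Anapc16 (-0.75), Mrpl49 (-0.73), Hspa5 (-0.64) and the mitochondrial aspartate and glutamate carrier Slc25a13 (-0.60). The change at 5 d minus the change at 3 d was called by limma for no gene (460, or 3.24%, at an unadjusted p under 0.05). Irs2 differed from its controls by 1.83 at 3 d and 1.85 at 5 d, and Sdf2l1 by -0.79 and -0.81.

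Tacrolimus shares the immunophilin but not the target, and its 6 arrays of the same campaign, vehicle and durations allowed a comparison without controls. Here and in the comparison with the other compounds below, each compound came from 1 study at each duration. Where the studies differ, study and compound cannot be told apart. The doses differed, 60 mg/kg of rapamycin and 134 mg/kg of tacrolimus, so the sizes below are not matched for dose. With rapamycin 55 genes were higher (0.387%) and 171 lower (1.20%) than with tacrolimus. The higher genes of largest difference were Fos (5.43), Fosb (3.59), G0s2 (3.30), Egr1 (2.42) and Irs2 (2.25). G0s2, an inhibitor of the lipase that opens fat droplets, was at 9.59 to 11.18 with rapamycin and at 7.04 to 7.58 with tacrolimus (adjusted p = 3.88e-06). Irs2 was at 8.95 to 10.08 with rapamycin and at 6.96 to 7.46 with tacrolimus (adjusted p = 1.76e-05). Both genes were therefore apart, but they stood differently to the CMC controls, where G0s2 ran between 8.34 and 10.78 and Irs2 between 6.79 and 9.30.

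The lower genes of largest difference were the matrix protein gene Postn (-2.18), the potassium channel gene Kcna5 (-1.96), Rhobtb1 (-1.92), Fkbp5 (-1.87) and Dbp (-1.87). Fkbp5, an immunophilin that glucocorticoids induce, was at 7.56 to 8.47 with rapamycin and at 9.46 to 10.33 with tacrolimus (adjusted p = 6.09e-06). The controls, at 7.40 to 10.14, covered the rapamycin range. Dbp, an output factor of the circadian clock, was at 6.13 to 7.15 with rapamycin and at 8.25 to 9.19 with tacrolimus, next to a control median of 7.12. Of 17 clock genes 2 were higher and 7 lower with rapamycin than with tacrolimus, and none was called between rapamycin and the CMC controls. The labels give 1 harvest schedule for the 3 d and 5 d animals, starting at 7 in the morning, and its part in these differences was not tested. Hspa5 and Sdf2l1 were lower with rapamycin than with tacrolimus too, with differences of -0.54 (adjusted p = 0.00895, below the fold minimum) and -0.70 (adjusted p = 0.00149).

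**Figure D5:**
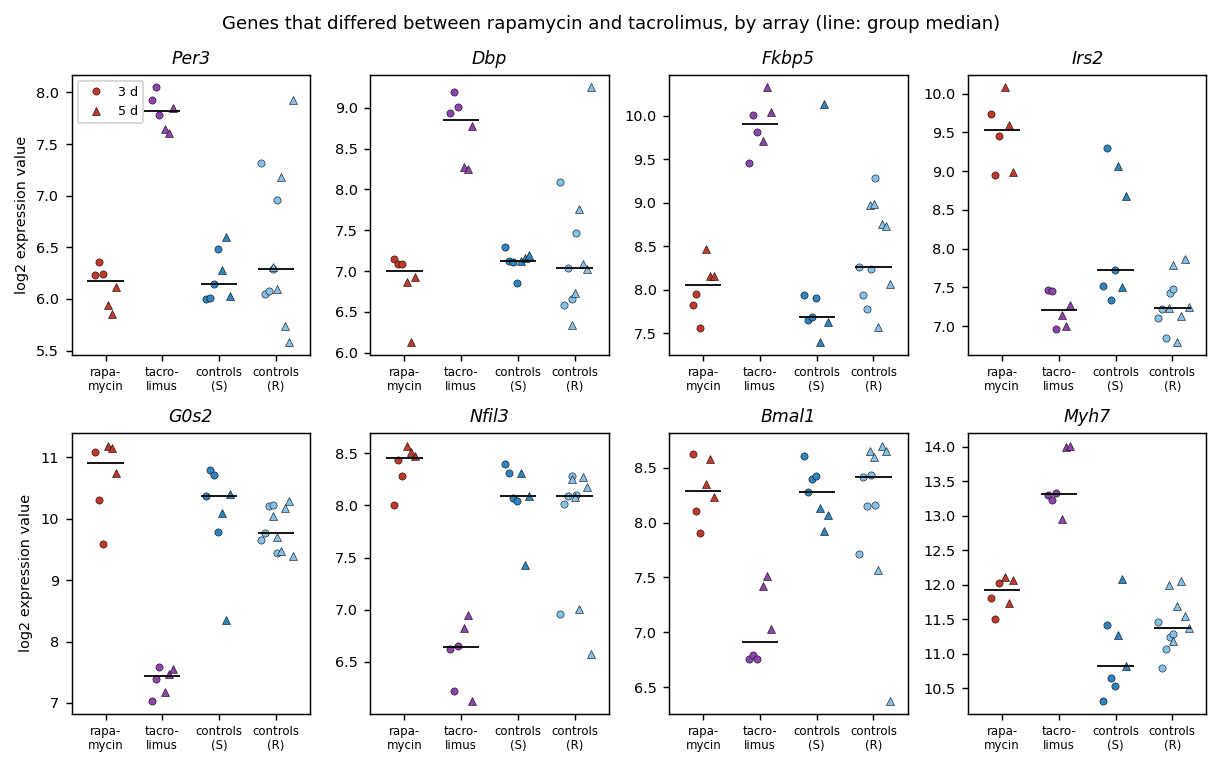
Log2 expression values (vertical axis, a separate scale for each gene) of 8 genes in each array of rapamycin, tacrolimus, S controls and R controls from left to right, with circles for 3 d, triangles for 5 d and a line at the group's median. Dbp is at 6.13 to 7.15 with rapamycin and 8.25 to 9.19 with tacrolimus, and G0s2 at 9.59 to 11.18 with rapamycin and 7.04 to 7.58 with tacrolimus.

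The last comparison set rapamycin against all 65 arrays of 13 other compounds given in CMC by oral gavage for 3 d or 5 d in the campaign, with compound as a random block. They were Amiodarone (147 mg/kg), Candesartan (1300 mg/kg), Chlorobenzene (500 mg/kg), Cyproheptadine (37 mg/kg), Fludrocortisone Acetate (125 mg/kg), Spironolactone (300 mg/kg), Terfenadine (750 mg/kg), Valdecoxib (404 mg/kg) and the same Tacrolimus arrays at both durations. Azaribine (750 mg/kg), Chlorpyrifos (82 mg/kg), Fluoxetine (52 mg/kg) and Risperidone (22 mg/kg) were present at 5 d. It called 24 genes higher (0.169%) and 9 lower (0.0633%). The higher genes of largest difference were Fos (5.84), Fosb (3.93), Egr1 (3.26), Nr4a1 (3.00) and Egr2 (2.38), and 12 of the 16 immediate early genes were called. The median Fos value was 11.50 with rapamycin, and the next compound medians were 8.21 with Spironolactone, 8.08 with Candesartan and 7.37 with Fludrocortisone Acetate, all from S studies. Single arrays of Candesartan and Spironolactone reached 11.62 and 11.54, and 1 of Chlorpyrifos, from an R study, reached 10.80, all within the rapamycin range. Irs2 also had its highest median with rapamycin, at 9.53, against 8.29 with Spironolactone, the next compound. Single arrays of Candesartan and Spironolactone reached 9.84 and 9.47 for Irs2, within the rapamycin range of 8.95 to 10.08.

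The lower genes of largest difference were Per3 (-1.75), Nr1d1 (-1.33), Nr1d2 (-1.19), Klf15 (-0.96) and Pik3ip1 (-0.87), of which the first 3 belong to the circadian clock. Per3 was at 5.86 to 6.36 with rapamycin and at 5.63 to 9.06 over the other compounds, while the CMC controls, at 5.58 to 7.92, were as low as rapamycin. Sdf2l1 had its lowest compound median with rapamycin, at 7.04, and the next was 7.51 with Terfenadine. The rapamycin arrays were at 6.89 to 7.32, and the lowest arrays of Risperidone (7.11), Terfenadine (7.15), Candesartan (7.22) and Chlorobenzene (7.26) lay within that range. Hspa5 likewise had a median of 10.82 with rapamycin and 11.05 with Chlorobenzene, the next compound, of which single arrays went down to 10.29. The change of the 2 chaperones against the other compounds was -0.68 for Sdf2l1 and -0.56 for Hspa5. Neither was called there: Sdf2l1 missed the limit on the adjusted p, and Hspa5 was below the fold minimum.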

How the data were processed

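Hearts were profiled on 1-colour Affymetrix RG230_2.0 arrays. The authors deposited log2 expression values for 31099 probe sets; the submitters' processing notes name RMA (version not given in the sources used here). These values were used as deposited. Control probe sets (57) and those with several (436) or no (9780) gene symbols were left out, and each of 14217 genes was taken from its probe set of highest mean. Array medians lay between 5.95 and 6.39. The number of arrays limits the precision.

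Controls matched the rapamycin arrays in vehicle, route, duration and campaign of RNA extraction (5 campaigns, separated by gaps of 31 days or more). The 17 arrays whose labels disagree or give no group were left out, and 1 array was kept for each of the 22 animals with 2. That samples are separate animals rests on the labels. Tests used limma 3.58.1 in R 4.3.3 with duration as a covariate, Benjamini-Hochberg adjustment over all genes, and a call at an adjusted p of 0.01 or less and 1.5-fold or more; the fitting was tested on simulated data. Other compounds were fitted with compound as a random block. Plots were drawn in Python 3.11.15 with pandas 2.3.3 and matplotlib 3.10.9.

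The genes named were the called ones that changed most, up to 20 in each direction and of 1 sign at both durations, up to 5 each way against tacrolimus and against the other compounds, members of the gene lists, and Alb. Genes outside this rule are said to be chosen after their values were seen, or were called at 1 duration. The arrays and lists were chosen with earlier results of these data known. Alternatives covered normalization, probe set choice, a filter on low genes, the methods' t-test, study, extraction day, hybridisation day, other control sets and leaving out each array.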

Additional observations from a re-analysis of the deposited data

Results flagged for a closer look

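In each group of 9 CMC controls the highest and lowest array were compared with the rest for 44 genes, and 16 of 88 group and gene pairs held an array far from the others. Chance flags about 1 in 20 groups, and the genes share arrays. The 3 d control of replicate 2, from an S study, stood apart with high values for 11 genes: Alb (11.17), Nr4a1 (11.48), Errfi1 (10.47), Nr4a3 (10.43), Junb (9.51), Irs2 (9.30), Fosb (8.73), Nr4a2 (8.59), Myc (7.47), Ccn1 (6.85) and Egr2 (6.29). Of these, all but Alb were called higher with rapamycin. Without this control 69 genes were called higher and 13 lower. At 5 d the control of replicate 3 was high for Srxn1 (7.46) and Cxcl1 (6.84), and that of replicate 2 for Klf4 (10.18). At 3 d the control of replicate 5 was high for Anapc16 (8.72) and that of replicate 3 low for Hacd1 (10.47).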

How the results depend on the processing

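The count of 73 genes lay between 49 and 75 with another normalization, probe set, filter or the methods' t-test. It was 93 with study as a random block, whose fitted correlation was -0.0499. That block cannot part study from treatment, because all rapamycin arrays came from 1 study. The count was 8 with extraction day as a block, 0 on the extraction days that held both groups and 0 within day 3. Within extraction day 2 the difference rested on 1 rapamycin array, so no count is given. The count was 15 with hybridisation day as a block and 2 with the same-study controls. With the S controls, an alternative chosen after the data were seen, it was 0. At an adjusted p of 0.05 with no fold minimum it was 553 (193 higher and 360 lower). The cause of these differences was not tested. Quantile normalization gave 4 genes at 3 d and 24 at 5 d, and extraction day as a block gave 1 at 5 d. Against tacrolimus, extraction day as a block gave 342 genes in place of 226, and quantile normalization gave 73 higher and 135 lower in place of 55 and 171. Against the other compounds 85 genes were called without the random block, in place of 33. Leaving out 1 array at a time gave 40 (without rapamycin 5 d replicate 1) to 82 genes for both durations, 0 (without rapamycin 3 d replicate 3) to 12 (without rapamycin 3 d replicate 1) at 3 d, 2 (without rapamycin 5 d replicate 1) to 26 (without rapamycin 5 d replicate 3) at 5 d, 0 to 0 for the difference between durations, 111 (without tacrolimus 5 d replicate 2) to 230 against tacrolimus and 18 (without rapamycin 5 d replicate 1) to 35 against the other compounds. The alternatives were run for the called genes that the naming rule gave, not for the other list members, and among these the sign turned for Klf15, which was 0.12 within extraction day 2. No paired analysis was possible because the replicate numbers were given in accession order and pair no animals.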
